A study of Homo sapiens with 12 samples.

Results

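The core spliceosome components described here are 59 genes, given as a list of proteins of the U1, U2, U4/U6 and U5 small nuclear ribonucleoproteins (snRNPs), of the PRPF19 complex and of the factors that act with them. The list follows the known roles of the proteins and uses no measured value in its rule, but it was drawn up with earlier results of these data known, so the direction of its genes is a description and not independent evidence. All 59 genes were found among the 14698 genes of the count table and all had counts in every library, and for the description they were sorted by known role into 8 groups.

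The spliceosome removes introns from pre-messenger RNA. U1 snRNP marks the 5′ splice site, U2 snRNP and its helpers mark the branch site and the 3′ splice site, and the joined U4/U6 and U5 snRNPs then enter, are unwound by helicases and become the catalytic centre together with the PRPF19 complex. The Sm proteins around which most snRNPs are built carry symmetrically dimethylated arginines placed by PRMT5, the enzyme that onametostat inhibits, and splicing is among the best known processes that depend on this enzyme.

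The libraries were made from T98-G, an established human glioblastoma line, the only line with RNA data used here. Adherent cells were treated for 48 h with 1 µM onametostat or with 0.1% DMSO, the solvent control, in normoxia (20% oxygen) or in hypoxia (1% oxygen). The 4 conditions were DMSO in normoxia, DMSO in hypoxia, onametostat in normoxia and onametostat in hypoxia. Each had 3 libraries of polyadenylated RNA, named by the experiment numbers 1 to 3, so the p-values measure the spread between separate experiments in 1 line. Directions follow the labels of the libraries. The sources are not uniform on the direction of the onametostat comparison for some of these genes, including PRPF39, U2AF1, PRPF3, PRPF38B and RBM17. No gene of the table was used to check the treatment independently of the labels. If the labels of DMSO and onametostat were exchanged, every fold change of onametostat over DMSO given here would turn its sign and keep its size, and which source is right was not tested.

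Total counts lay between 18154073 and 45977729 in 10 of the 12 libraries. In the group of onametostat in hypoxia, library 2 had 7641280 counts and library 3 had 403279. The study lists more sequenced reads for library 3 than for library 2. Below, the shallowest library therefore means the one with the fewest counts, and why so few of its reads were counted was not tested. In that last library, 1 count was worth 2.69 CPM (counts scaled to a common library size with the TMM factors of edgeR), 2978 genes of the table were at 0 and PRPF40B alone of the 59 genes had under 10 counts. Among the glial and mesenchymal markers looked for, VIM, CD44 and OLIG2 were in the table, and the other 4 of the 7, along with 6 markers of other cell types, were not among its genes.

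In the libraries labelled onametostat, most of the spliceosome genes had higher counts than in those labelled DMSO, at both oxygen levels. In normoxia, 49 of the 59 genes were higher and 5 were lower than with DMSO at an adjusted p under 0.05 (quasi-likelihood test of edgeR, Benjamini-Hochberg adjustment over all 14698 genes). Of all genes, 27.2% were called higher and 29.3% lower in the same comparison. The median log2 fold change was 0.35 over the 59 genes and -0.01 over all genes. Among the called genes, the 3 onametostat libraries overlapped the 3 DMSO libraries in CRNKL1, which was higher, and in DHX38, which was lower. Overlap was not counted over all genes, so it does not set the 59 genes apart. PRPF40B, LUC7L, RBM17, PRPF31 and CDC40 were not called.

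In hypoxia, 51 of the 59 genes were higher with onametostat and 2 were lower, where 25.6% of all genes were called higher and 26.4% lower. The median log2 fold change was 0.38 over the 59 genes and -0.01 over all genes. Without library 3 of onametostat in hypoxia, 49 of these genes remained higher and the same 2 lower, RBM17 and SNRNP40 losing the call. The groups overlapped in some of the higher genes, and SNRPA, PRPF40B, CRNKL1, AQR, DHX38 and CDC40 were not called. The 2 comparisons use different libraries, and 47 of the 59 genes were called higher in both, against 20.7% of all genes. SF3B3 and TXNL4A were called lower in both, against 22.2% of all genes. Bulk counts do not tell a change in RNA per cell from a change in the share of cells that carry the RNA.

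Most of the increases were small. In normoxia, 38 of the 49 increases were under 0.5 on the log2 scale, 7 lay between 0.5 and 1, and 4 passed the rule for a differentially expressed gene (DEG), which also asks for an absolute log2 fold change above 1. No gene passed that rule downwards. Of all genes, 1.76% were DEGs upwards and 4.35% downwards. In hypoxia, 33 increases were under 0.5, 13 lay between 0.5 and 1 and 5 genes were DEGs upwards, with none downwards, against 2.08% and 5.44% of all genes. PRPF39, U2AF1, PRPF3 and PRPF38B were DEGs in both comparisons, higher in the libraries labelled onametostat, and RBM17 was the additional DEG in hypoxia.

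**Figure D1:**
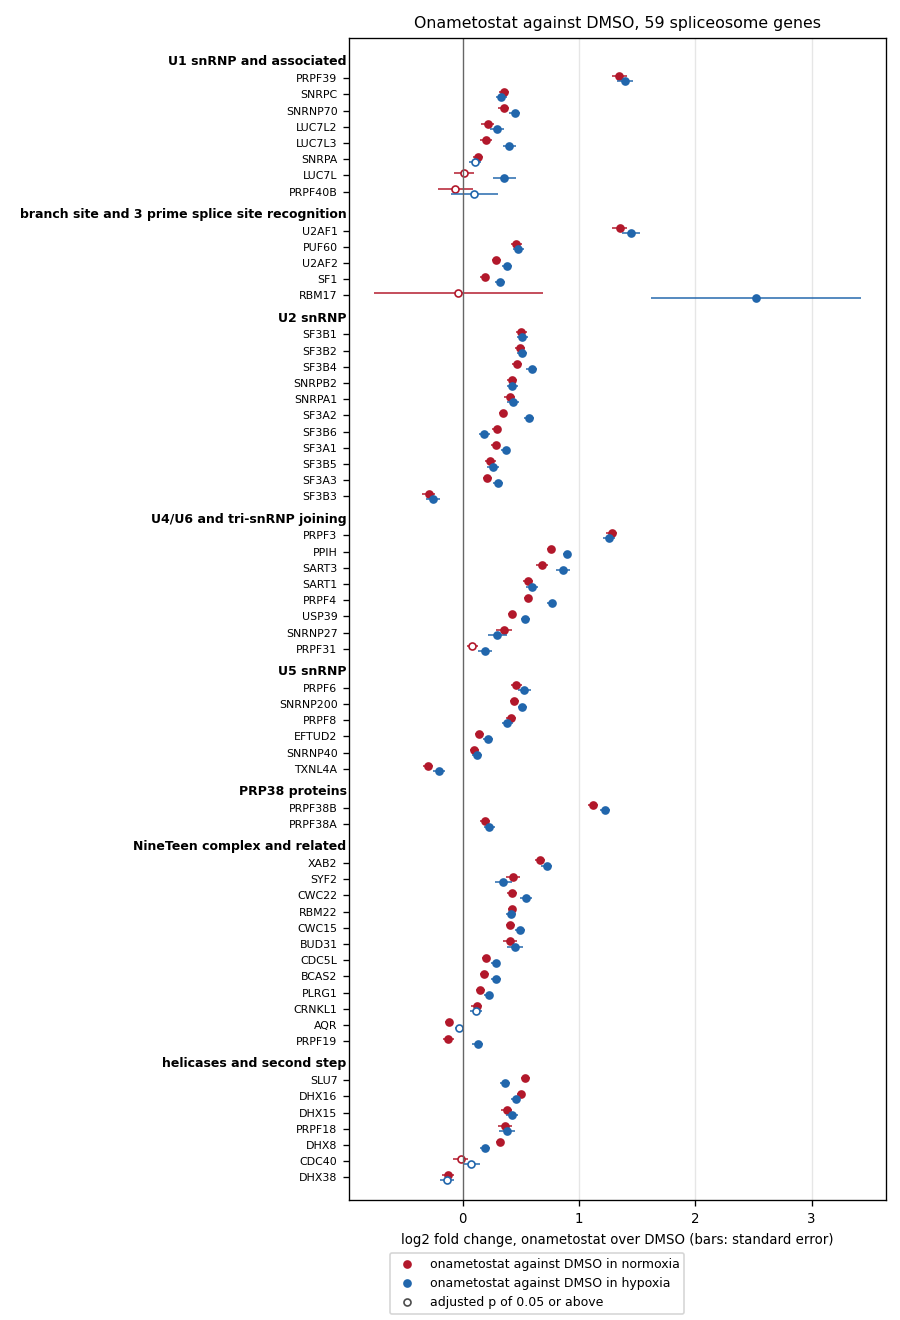
Log2 fold change of onametostat over DMSO (horizontal axis) for the 59 genes, sorted within the 8 role groups, in normoxia (red) and hypoxia (blue), with standard errors as bars and open points for an adjusted p of 0.05 or above. PRPF39, U2AF1, PRPF3 and PRPF38B lie above 1 at both oxygen levels, SF3B3 and TXNL4A lie below 0 at both, and the bars of RBM17 (standard errors of 0.73 and 0.90) exceed those of the other genes.

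The summed counts of the 59 genes moved in the same direction. They made up 0.815%, 0.815% and 0.816% of all counts in the DMSO libraries in normoxia and 0.799%, 0.792% and 0.809% in hypoxia. With onametostat, the shares were 0.998%, 1.01% and 1.01% in normoxia and 1.01%, 1.01% and 1.12% in hypoxia. All 6 onametostat libraries thus lay above all 6 DMSO libraries. Without RBM17, library 3 of onametostat in hypoxia fell to 0.898%, below the other 5 onametostat libraries and still above the DMSO libraries.

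**Figure D2:**
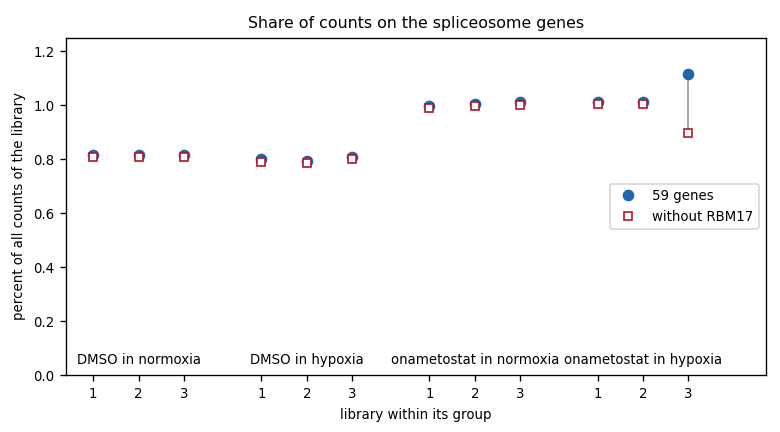
Share of all counts of a library (percent, vertical axis) that fell on the 59 genes (filled circles) and on these genes without RBM17 (open squares), for the 3 libraries of each condition. The 6 DMSO libraries lie between 0.792% and 0.816% with RBM17 and the 6 onametostat libraries between 0.998% and 1.12%, and removing RBM17 moves library 3 of onametostat in hypoxia, the shallowest library, from 1.12% to 0.898%.

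Among U1 proteins and their partners, which recognise the 5′ splice site, 6 of 8 genes were called higher in normoxia and 6 of 8 in hypoxia, with medians of 0.21 and 0.34 on the log2 scale. The largest increase was that of PRPF39 (GENCODE 44, GRCh38: chromosome 14, 45084107 to 45116282, plus strand), a U1-associated protein known to act in alternative splicing. PRPF39 stood at 23.4, 24.9 and 23.9 CPM with DMSO in normoxia and at 60.2, 58.1 and 65.6 CPM with onametostat. In hypoxia its levels were 20.9, 24.2 and 21.2 CPM with DMSO and 60.2, 56.5 and 53.8 CPM with onametostat. Every onametostat library lay above every DMSO library, the lowest of the former at 53.8 CPM and the highest of the latter at 24.9 CPM. The log2 fold change was 1.34 ± 0.06 (SE) in normoxia, with an adjusted p of 5.72e-11, and 1.39 ± 0.07 in hypoxia, with an adjusted p of 2.59e-10. Exons of PRPF39 share 13.3% of their bases with FKBP3 on the opposite strand, and the counting was run with default settings, which do not use strand.

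The 3 proteins specific to U1 snRNP changed less. SNRNP70, which contacts U1 RNA directly, stood at 239.8, 258 and 260.5 CPM with DMSO and at 317, 329 and 321 CPM with onametostat in normoxia, a log2 fold change of 0.35 ± 0.05 (adjusted p = 4.47e-06). SNRPC, which stabilises pairing with the 5′ splice site, rose by the same 0.35 ± 0.04 (adjusted p = 2.37e-06). SNRPA rose by 0.13 ± 0.04 in normoxia (adjusted p = 0.0156) and had 0.10 ± 0.05 in hypoxia (adjusted p = 0.0939). Of the human relatives of the yeast U1 protein Luc7, LUC7L2 and LUC7L3 were called higher at both oxygen levels, with log2 fold changes from 0.20 to 0.40, whereas LUC7L was called in hypoxia only (0.36 ± 0.10, adjusted p = 0.00616), where its groups overlapped.

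PRPF40B, another U1-associated protein, was called in neither comparison. Its 3 libraries with onametostat in hypoxia had 4.49, 3.72 and 16.1 CPM, the last from 6 counts. The exons of PRPF40B overlap those of FMNL3 over 28.0% of their bases.

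All 4 genes of the group for the branch site and the 3′ splice site other than RBM17 were called higher at both oxygen levels. U2AF1 (chromosome 21, 43092956 to 43107570, minus strand) encodes the small U2AF subunit, which reads the AG at the intron end. U2AF1 had 15.8, 17.1 and 16.1 CPM with DMSO in normoxia and 41.0, 42.1 and 42.0 CPM with onametostat. Under hypoxia it had 12.3, 12.9 and 12.3 CPM with DMSO and 32.4, 37.5 and 26.9 CPM with onametostat. The groups did not overlap, and the lowest onametostat value came from the shallowest library. Its log2 fold change was 1.35 ± 0.07 in normoxia (adjusted p = 6.29e-11) and 1.45 ± 0.08 in hypoxia (adjusted p = 3.17e-10).

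A near-identical copy of U2AF1 is annotated on the same chromosome in RefSeq, so that the level of U2AF1 is uncertain wherever reads match both places. U2AF2, the large U2AF subunit that binds the polypyrimidine tract, had a much higher level and a smaller increase. It had 333, 348 and 341 CPM with DMSO and 413, 419 and 415 CPM with onametostat in normoxia, a log2 fold change of 0.29 ± 0.04 (adjusted p = 1.55e-05). PUF60, a protein related to U2AF2 in sequence and binding, rose by 0.46 ± 0.04 in normoxia and 0.48 ± 0.05 in hypoxia. SF1, which binds the branch site before U2 snRNP does, rose by 0.19 ± 0.04 and 0.32 ± 0.04.

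The result for RBM17 (chromosome 10, 6089034 to 6117457, plus strand), a regulator of 3′ splice site choice, rested on a single library. It had 81.1, 88.1 and 87.2 CPM with DMSO in normoxia, 77.3, 78.0 and 76.5 CPM with DMSO in hypoxia, and 81.6, 81.3 and 86.9 CPM with onametostat in normoxia. With onametostat in hypoxia it had 78.9, 83.7 and 2368 CPM. Library 3 was thus 26.9 times the highest other library, with 880 counts out of 403279, and RBM17 was the only one of the 59 genes in which this library was at least 4 times the highest other. The fit over all libraries gave a log2 fold change of 2.52 ± 0.90 (adjusted p = 0.0267) in hypoxia. Without library 3 the value was 0.06 with an adjusted p of 0.30, and in normoxia it was -0.04 ± 0.73 (adjusted p = 0.972).

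**Figure D3:**
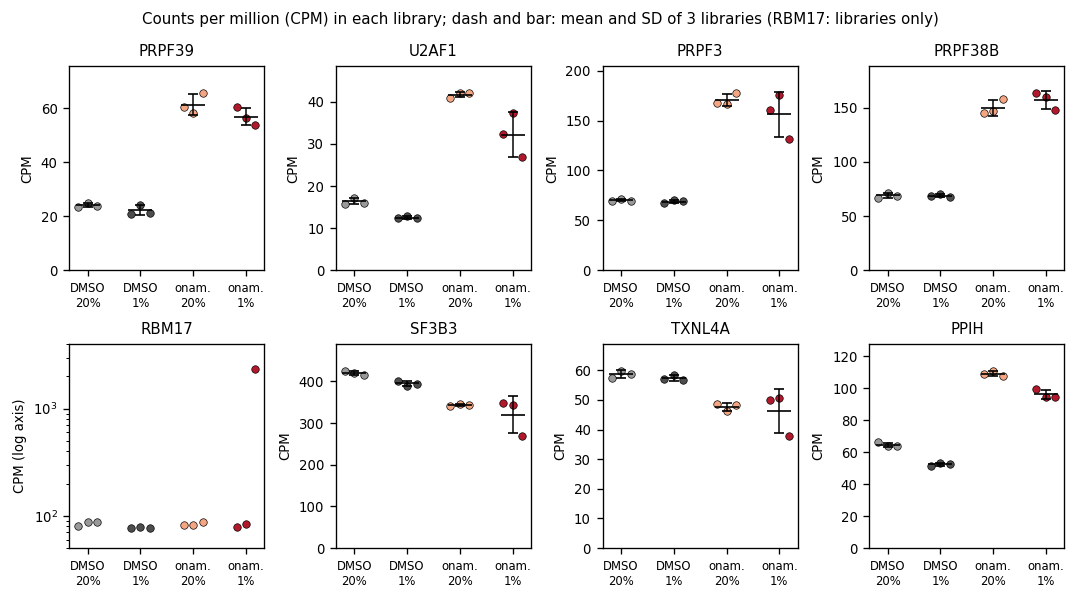
CPM in each library (points) with the mean and SD of the 3 libraries of a condition (dash and bar) for 8 spliceosome genes, with DMSO or onametostat (onam.) at 20% or 1% oxygen (for RBM17, a logarithmic axis with libraries only). The onametostat libraries lie above the DMSO libraries for PRPF39, U2AF1, PRPF3, PRPF38B and PPIH and below them for SF3B3 and TXNL4A, and RBM17 stands at 2368 CPM in 1 library and at 88.1 CPM or lower in the others.

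U2 snRNP holds the branch site through its SF3A and SF3B subcomplexes, and 10 of its 11 genes were called higher at each oxygen level. SF3B1, the large subunit that clamps the branch helix and is recurrently mutated in blood cancers, had 329.6, 309.8 and 319.6 CPM with DMSO and 448, 449 and 462 CPM with onametostat in normoxia. In hypoxia the levels were 319, 321 and 319 CPM with DMSO and 479.5, 451 and 419.7 CPM with onametostat. The groups were apart at both oxygen levels, with log2 fold changes of 0.50 ± 0.05 (adjusted p = 6.85e-08) and 0.51 ± 0.05 (adjusted p = 1.31e-07).

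SF3B4, which contacts the pre-mRNA upstream of the branch site, had 177, 180.3 and 185 CPM with DMSO and 269, 267 and 299 CPM with onametostat in hypoxia. Its log2 fold change was 0.59 ± 0.05 there and 0.47 ± 0.04 in normoxia. SF3A2, one of the SF3A subunits, rose by 0.34 ± 0.04 in normoxia and 0.57 ± 0.04 in hypoxia. The remaining genes called higher in U2 snRNP had log2 fold changes between 0.18 (SF3B6 in hypoxia) and 0.51 (SF3B2 in hypoxia).

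SF3B3 (chromosome 16, 70523791 to 70577670, plus strand), a scaffold subunit of SF3B, went the other way. With DMSO in normoxia SF3B3 had 426, 421 and 415 CPM, and with onametostat 340.1, 345 and 345 CPM. With DMSO in hypoxia it had 402, 389.8 and 395 CPM, and with onametostat 349, 343 and 269 CPM. All 6 onametostat libraries were below all 6 DMSO libraries, with the shallowest library lowest. SF3B3 fell by 0.29 ± 0.06 in normoxia (adjusted p = 0.000312) and fell by 0.26 ± 0.06 in hypoxia (adjusted p = 0.00154), with a log2 fold change of -0.19 (adjusted p = 0.000149) without that library.

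The U4/U6 proteins and the factors that bring the tri-snRNP into the spliceosome had the largest median increase of the groups with more than 2 genes, 0.56 in normoxia and 0.68 in hypoxia. In normoxia 7 of the 8 genes were called higher, PRPF31 being the exception (0.08 ± 0.05, adjusted p = 0.174), and in hypoxia all 8 were. PRPF3 and PRPF4 bind each other on U4/U6, together with the cyclophilin PPIH. PRPF3 (chromosome 1, 150321479 to 150353233, plus strand) had 69.5, 71.4 and 69.8 CPM with DMSO and 168, 166 and 178 CPM with onametostat in normoxia. In hypoxia its levels were 67.0, 70.5 and 69.2 CPM with DMSO and 161, 176 and 132 CPM with onametostat. No library of onametostat reached down to those of DMSO, and the log2 fold changes were 1.28 ± 0.05 (adjusted p = 4.08e-12) and 1.26 ± 0.05 (adjusted p = 3.77e-11).

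PPIH, the cyclophilin, had 66.1, 63.8 and 64.0 CPM with DMSO and 109, 111 and 107 CPM with onametostat in normoxia. Under hypoxia the values were 51.3, 52.9 and 52.5 CPM with DMSO and 99.2, 94.6 and 94.2 CPM with onametostat. These 4 groups were apart from one another, and onametostat came with a log2 fold change of 0.76 ± 0.03 in normoxia (adjusted p = 7.39e-12) and 0.89 ± 0.04 in hypoxia (adjusted p = 2.2e-11). PRPF4 rose by 0.56 ± 0.03 and 0.76 ± 0.04, from 82.8, 82.2 and 79.2 CPM to 115, 124 and 119 CPM in normoxia. SART3, which recycles U4/U6 after splicing, rose by 0.68 ± 0.05 and 0.86 ± 0.06. SART1 and USP39, which act when the tri-snRNP joins, rose by 0.56 ± 0.04 and 0.42 ± 0.04 in normoxia, and SNRNP27, a protein of the tri-snRNP, rose by 0.35 ± 0.07. Exons of PPIH share 15.6% of their bases with a long non-coding RNA gene on the opposite strand, those of PRPF31 share 22.0% with its antisense gene and those of SNRNP27 share 12.5% with MXD1, so that reads there cannot be told apart.

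In U5 snRNP, which carries the catalytic scaffold, 5 of 6 genes were called higher and TXNL4A lower at both oxygen levels. PRPF8, the scaffold itself, had the highest level in CPM of the U5 genes, with 715, 709 and 721 CPM with DMSO and 928, 954 and 977 CPM with onametostat in normoxia, a log2 fold change of 0.41 ± 0.05. PRPF6, which bridges U5 to U4/U6, had the largest increase of the group, 0.46 ± 0.05 in normoxia (adjusted p = 5.28e-07) and 0.53 ± 0.05 in hypoxia (adjusted p = 3.27e-07). It stood at 174, 185 and 178 CPM with DMSO and at 238, 255 and 245 CPM with onametostat in normoxia. SNRNP200, the helicase that unwinds U4 from U6, rose by 0.44 ± 0.04 and 0.51 ± 0.04. The GTPase EFTUD2 and SNRNP40, a repeat protein of U5, rose by 0.14 ± 0.04 and 0.10 ± 0.04 in normoxia, the smallest increases of the group.

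TXNL4A (chromosome 18, 79970813 to 80033949, minus strand), a small thioredoxin-like U5 protein, had 57.4, 59.8 and 58.9 CPM with DMSO and 48.6, 46.2 and 48.3 CPM with onametostat in normoxia. In hypoxia it had 57.2, 58.3 and 56.6 CPM with DMSO and 50.1, 50.7 and 37.7 CPM with onametostat. The groups did not overlap, and TXNL4A fell by 0.30 ± 0.04 in normoxia (adjusted p = 1.44e-05) and fell by 0.20 ± 0.05 in hypoxia (adjusted p = 0.00293).

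The 2 PRP38 proteins, of which PRPF38A is needed for activation of the spliceosome, were both called higher at both oxygen levels. PRPF38B (chromosome 1, 108692310 to 108702928, plus strand), the larger relative of PRPF38A, had 67.1, 71.3 and 68.7 CPM with DMSO and 145, 147 and 158 CPM with onametostat in normoxia. In hypoxia it had 68.9, 70.0 and 67.7 CPM with DMSO and 164, 159.7 and 148 CPM with onametostat. The onametostat libraries of PRPF38B started at 145 CPM and the DMSO libraries ended at 71.3 CPM, with log2 fold changes of 1.12 ± 0.04 (adjusted p = 2.47e-12) and 1.22 ± 0.04 (adjusted p = 9.57e-12). PRPF38A rose by 0.19 ± 0.04 and 0.23 ± 0.05.

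In the PRPF19 complex and the proteins that join with it, 10 of 12 genes were called higher in normoxia and 10 in hypoxia, with 2 called lower in normoxia and none in hypoxia. XAB2, a helical repeat protein of the active spliceosome also known from transcription-coupled repair, had 51.2, 52.2 and 52.3 CPM with DMSO and 79.9, 82.3 and 84.7 CPM with onametostat in normoxia. Its levels in hypoxia were 47.4, 46.5 and 48.9 CPM with DMSO and 78.2, 80.9 and 59.2 CPM with onametostat. The groups were apart and the log2 fold changes were 0.67 ± 0.04 (adjusted p = 9.23e-10) and 0.72 ± 0.05 (adjusted p = 3.03e-09). CWC22, which also helps to place the exon junction complex, rose by 0.42 ± 0.04 and 0.54 ± 0.05, and CDC5L, a core partner of PRPF19, rose by 0.20 ± 0.03 and 0.28 ± 0.04. Of the further members of the core, PLRG1 and BCAS2 rose by 0.15 ± 0.04 and 0.19 ± 0.04 in normoxia. Of the proteins that join at activation, SYF2, RBM22, CWC15 and BUD31 rose by 0.41 to 0.43 in normoxia, and CRNKL1 rose by 0.12 ± 0.04 (adjusted p = 0.0321) with overlapping groups. Exons of BUD31 share 38.7% of their bases with PTCD1 on the opposite strand, so that its counts are less certain.

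PRPF19, the ubiquitin ligase that gives the complex its name, was the only one of the 59 genes called in opposite directions. It had 226, 229 and 223 CPM with DMSO and 209, 211 and 202 CPM with onametostat in normoxia, where it fell by 0.12 ± 0.04 (adjusted p = 0.0232). In hypoxia it had 186, 188 and 191 CPM with DMSO and 193, 220.4 and 204 CPM with onametostat, a log2 fold change of 0.13 ± 0.05 (adjusted p = 0.0323). The DMSO libraries thus differed more between the oxygen levels than the onametostat libraries, which overlapped. Both calls were weak, the increase in hypoxia having an adjusted p of 0.388 without library 2 of onametostat in hypoxia and 0.391 with library sizes as the only scaling, and the fall in normoxia one of 0.0893 without library 3 of onametostat in normoxia. AQR, the helicase of the intron-binding complex, fell by 0.12 ± 0.03 in normoxia (adjusted p = 0.00616) and had -0.03 ± 0.04 in hypoxia.

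Among the helicases and the factors of the second catalytic step, 5 of 7 genes were called higher at each oxygen level. DHX16, the helicase that readies the spliceosome for the first step, had 83.4, 83.8 and 82.1 CPM with DMSO and 116, 116 and 120.4 CPM with onametostat in normoxia. Its log2 fold changes were 0.50 ± 0.04 (adjusted p = 7.72e-09) and, in hypoxia, 0.45 ± 0.04 (adjusted p = 1.38e-07). SLU7, which acts in 3′ splice site choice at the second step, had 67.5, 65.6 and 64.4 CPM with DMSO and 96.0, 93.0 and 98.2 CPM with onametostat in normoxia. SLU7 rose by 0.54 ± 0.04 there and by 0.36 ± 0.04 in hypoxia, and DHX15, the helicase that takes spent spliceosomes apart, rose by 0.38 ± 0.05 and 0.42 ± 0.05. PRPF18, a factor of the second step, rose by 0.36 ± 0.06 and 0.38 ± 0.07, and DHX8 by 0.32 ± 0.04 and 0.19 ± 0.04. PRPF18 shares 14.9% of its exon bases with FRMD4A on the opposite strand.

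DHX38, the helicase between the steps, had 97.9, 105 and 108 CPM with DMSO and 95.8, 89.8 and 99.3 CPM with onametostat in normoxia. These groups overlapped, and the call (a log2 fold change of -0.13 ± 0.05, adjusted p = 0.0403) was lost in 7 of the 12 fits that left out a library and with DESeq2 (adjusted p = 0.0735). CDC40, a factor of the second step, was called in neither comparison, with 0.07 ± 0.07 in hypoxia and 31.5, 29.5 and 28.5 CPM with DMSO against 30.6, 29.0 and 28.7 CPM with onametostat in normoxia.

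To show what precedes genes that moved together, the 250 bases before the annotated start are printed for the 4 genes with the largest log2 fold change in normoxia among the 54 of 59 genes with an entry in the RefSeq promoter table (GRCh38.p14). The entries run from 250 bases before to 50 bases after the start. PRPF39, PUF60, SF3B3, PRPF3 and SART3 have none. The windows lie at chr21:43107571-43107820 on the minus strand (U2AF1), chr1:108692060-108692309 on the plus strand (PRPF38B), chr1:42658173-42658422 on the plus strand (PPIH) and chr19:7629546-7629795 on the minus strand (XAB2), and each is written 5′ to 3′ along the gene. Capitals mark matches, on either strand, to the ETS core CCGGAAG, the GC box GGGCGG and the CCAAT box CCAAT.
U2AF1: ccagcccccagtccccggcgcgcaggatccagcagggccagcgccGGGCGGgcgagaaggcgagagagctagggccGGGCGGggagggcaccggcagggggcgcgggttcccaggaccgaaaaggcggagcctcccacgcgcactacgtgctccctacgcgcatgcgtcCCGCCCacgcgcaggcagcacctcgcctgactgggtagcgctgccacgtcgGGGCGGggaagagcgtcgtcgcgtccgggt
PRPF38B: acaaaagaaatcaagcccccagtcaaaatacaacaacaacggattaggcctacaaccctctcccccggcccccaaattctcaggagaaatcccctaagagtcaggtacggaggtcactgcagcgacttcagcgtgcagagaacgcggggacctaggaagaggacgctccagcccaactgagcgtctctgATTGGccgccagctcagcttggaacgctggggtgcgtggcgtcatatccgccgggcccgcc
PPIH: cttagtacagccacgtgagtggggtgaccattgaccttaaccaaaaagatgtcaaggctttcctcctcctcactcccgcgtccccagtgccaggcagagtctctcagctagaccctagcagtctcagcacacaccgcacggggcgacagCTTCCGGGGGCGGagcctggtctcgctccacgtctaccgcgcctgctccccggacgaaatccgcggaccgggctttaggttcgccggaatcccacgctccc
XAB2: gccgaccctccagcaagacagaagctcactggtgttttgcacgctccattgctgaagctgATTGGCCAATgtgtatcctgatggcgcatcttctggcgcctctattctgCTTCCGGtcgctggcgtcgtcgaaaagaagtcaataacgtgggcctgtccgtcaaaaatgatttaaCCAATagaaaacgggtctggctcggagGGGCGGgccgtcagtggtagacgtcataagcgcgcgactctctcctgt

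U2AF1 shows 4 GC boxes and neither of the other motifs, PRPF38B a single CCAAT box, PPIH an ETS core next to a GC box, and XAB2 all 3 motifs. The window of the U2AF1 copy is identical at 299 of 300 bases. Over the full windows, the ETS core was found in 29 of the 54 genes (53.7%), against 22.5% of the 10653 genes of the table with an entry and 10.3% of all 35116 windows. The GC box was found in 68.5% of the 54 genes and 77.0% of the genes of the table, the CCAAT box in 44.4% and 43.3%, and the NRF1 palindrome in 1.85% and 2.79%. The letters of the motifs do not overlap, though matches can lie side by side, as in PPIH. A match is a run of letters and was not tested as a binding site.

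Oxygen level was compared next, within each treatment. With DMSO, 16 of the 59 genes were lower and 4 were higher in hypoxia than in normoxia, against 13.9% and 14.1% of all genes, with a median log2 fold change of -0.08 over the 59 genes. No gene passed the DEG rule (0.599% of all genes did upwards and 0.231% downwards). This comparison shares its DMSO libraries in normoxia with that of onametostat in normoxia. When library 2 of DMSO in normoxia was left out, 9 genes were lower, and when library 1 of DMSO in hypoxia was left out, 10 were. The count was 24 when the shallowest library, which enters this comparison only through the shared estimate of spread, was left out.

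PPIH had the smallest p of the 59 genes in this comparison, from 66.1, 63.8 and 64.0 CPM in normoxia to 51.3, 52.9 and 52.5 CPM in hypoxia, and fell by 0.30 ± 0.03 (adjusted p = 3.4e-06). PRPF4, its partner on U4/U6, had 82.8, 82.2 and 79.2 CPM against 66.2, 67.5 and 65.9 CPM and fell by 0.29 ± 0.03 (adjusted p = 1.47e-05). SF3A2 had 122, 125 and 127 CPM against 101, 103 and 106 CPM and fell by 0.27 ± 0.04 (adjusted p = 4.21e-05). In each of the 3 genes the hypoxia libraries were all below the normoxia libraries.

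PRPF19 fell by 0.26 ± 0.04 (adjusted p = 0.000327), USP39 fell by 0.21 ± 0.04 (adjusted p = 0.000426) and U2AF1 fell by 0.39 ± 0.07 (adjusted p = 0.000509), also without overlap. The 4 genes that were higher in hypoxia with DMSO were PRPF8 (0.15 ± 0.05), SNRNP200 (0.16 ± 0.04), DHX8 (0.17 ± 0.04), the helicase that releases the spliced mRNA, and SLU7 (0.17 ± 0.04). PRPF8 and SNRNP200 belong to U5, and DHX8 and SLU7 to the helicases and second-step factors. The 4 genes are 6.78% of the 59, against 14.1% of all genes called higher, so they do not set a role group apart.

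**Figure D4:**
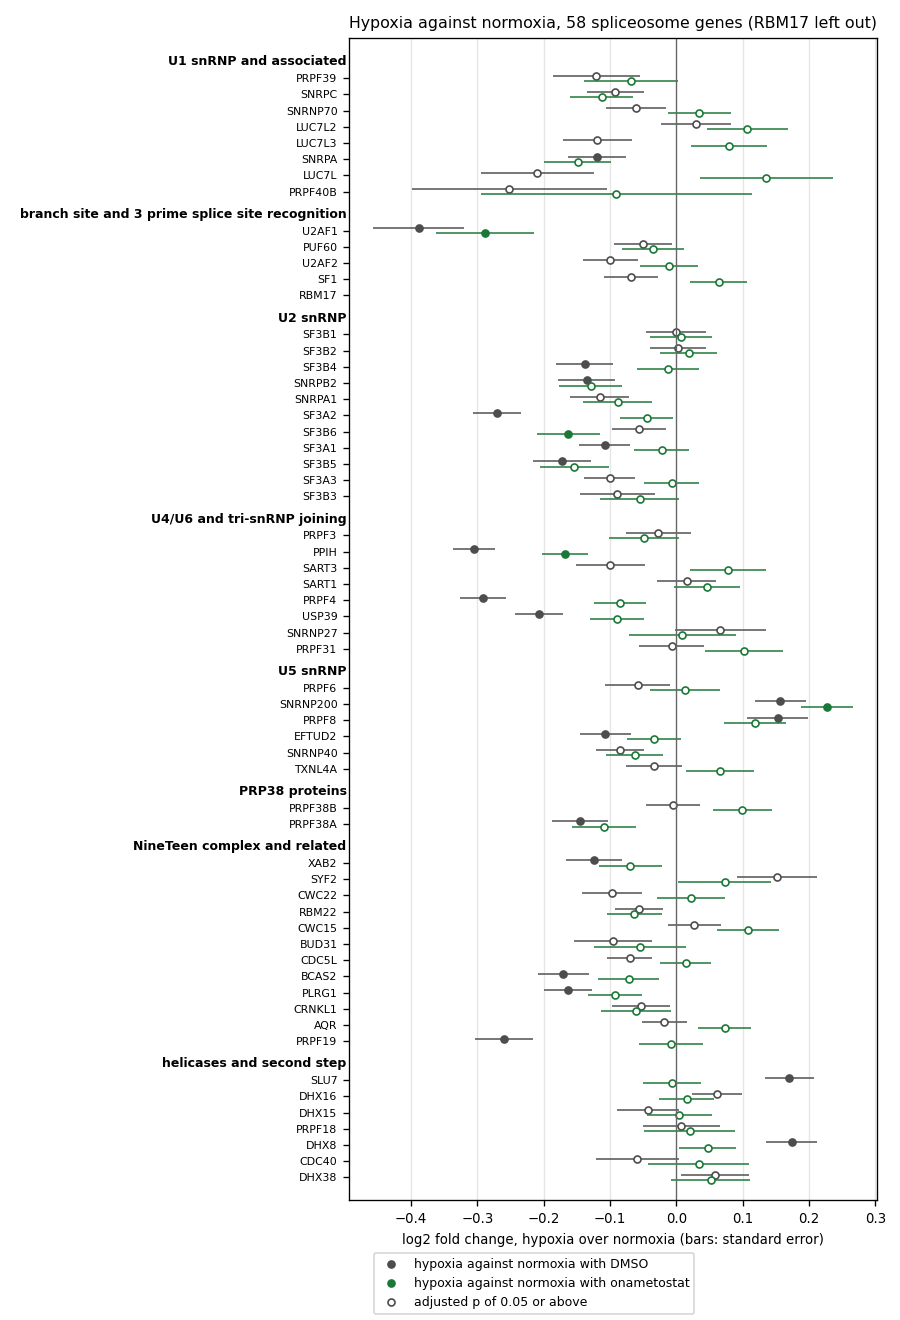
Log2 fold change of hypoxia over normoxia (horizontal axis) for 58 of the 59 genes, with DMSO (grey) and with onametostat (green), with standard errors as bars, open points for an adjusted p of 0.05 or above, and RBM17 left out because library 3 of onametostat in hypoxia sets its value. With DMSO 16 genes are called lower and 4 higher, and with onametostat 3 lower and 1 higher.

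With onametostat, 3 genes were lower and 1 was higher in hypoxia, against 6.16% and 7.69% of all genes, and no gene passed the DEG rule (0.415% of all genes did upwards and 0.313% downwards). SNRNP200 was the higher gene, with 522, 536 and 541 CPM in normoxia and 624, 626 and 622 CPM in hypoxia, a log2 fold change of 0.23 ± 0.04 (adjusted p = 0.00113) without overlap. PPIH fell by 0.17 ± 0.04 (adjusted p = 0.00464), U2AF1 fell by 0.29 ± 0.07 (adjusted p = 0.0156) and SF3B6, the subunit near the branch point adenosine, fell by 0.16 ± 0.05 (adjusted p = 0.0326). The fall of U2AF1 had an adjusted p of 0.283 without library 1 of onametostat in hypoxia, and that of PPIH had 0.0521 without library 2 and 0.0799 without libraries 2 and 3. The call of SF3B6 was kept in 9 of 20 alternatives, with adjusted p from 0.0172 to 0.192, and was lost with DESeq2 (0.0796) and limma voom (0.106). RBM17 had 2.42 ± 0.91 (adjusted p = 0.088) with library 3 and -0.045 without it.

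Whether the effect of onametostat differed between the oxygen levels was tested with the interaction term. None of the 59 genes was called in either direction. Of all genes, 0.225% were called with a more positive and 0.272% with a more negative log2 fold change in hypoxia. Without adjustment, 12 of the 59 genes had a p under 0.05 in this test, as did 1937 of all 14698 genes. Of the 12, 10 had the more positive effect in hypoxia, among them RBM17, whose value rested on 1 library. The split by direction was not counted over all genes. DESeq2 and limma voom each called PRPF19 alone among the 59 genes, with adjusted p of 0.0419 and 0.0359 where edgeR gave 0.0925. The interaction of PRPF19 was 0.25 ± 0.06 on the log2 scale, that of SF3A2 0.23 ± 0.05 (adjusted p = 0.0715) and that of PRPF4 0.21 ± 0.05 (adjusted p = 0.0893).

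Other genes of the same pathway were described from lists by role. For each list, the shares of all genes called higher and lower with onametostat were 27.2% and 29.3% in normoxia. In hypoxia they were 25.6% and 26.4%. Of 14 genes of the Sm and LSm rings, which form the core around the snRNAs, 8 were called higher and 2 lower in normoxia after onametostat, and 9 were higher and 1 lower in hypoxia. SNRPB rose by 0.43 ± 0.04 and SNRPE by 0.42 ± 0.04 in normoxia, LSM5 rose by 0.25 ± 0.03 and LSM7 fell by 0.37 ± 0.05. In hypoxia with DMSO, 9 of these 14 genes were called lower, against 13.9% of all genes.

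Of 15 genes of the PRMT5 methylosome and the SMN complex, which methylate the Sm proteins and assemble them on snRNA, 8 were called higher and 3 lower in normoxia, and 9 and none in hypoxia. PRMT5 itself rose by 0.43 ± 0.04 in normoxia and by 0.32 ± 0.04 in hypoxia, its adaptor COPRS rose by 0.34 ± 0.03 and STRAP, a partner of the SMN complex, by 0.26 ± 0.04 in normoxia. WDR77, the obligate partner of PRMT5, fell by 0.24 ± 0.04 in normoxia. Exons of PRMT5 and WDR77 share 28.2% and 25.1% of their bases with a non-coding gene each. With DMSO, 9 of the 15 genes were called lower in hypoxia, against 13.9% of all genes.

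Of 42 further spliceosome factors, 27 were called higher and 3 lower in normoxia, and 32 and 3 in hypoxia. PRPF4B, a kinase that acts on the tri-snRNP, rose by 1.10 ± 0.05 and 1.05 ± 0.05, and SMNDC1, a relative of SMN found in the spliceosome, rose by 0.94 ± 0.04 and 1.01 ± 0.04. The helicases DDX46, which acts with U2 snRNP, and DDX23, which acts with U5 snRNP, rose by 0.79 ± 0.04 and 0.75 ± 0.05 in normoxia. The median log2 fold changes in normoxia were 0.18, 0.23 and 0.24 for these 3 lists, beside 0.35 for the 59 genes.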

How the data were processed

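RNA of T98-G cells was sequenced in 12 libraries, 3 for each of 4 conditions. Per the study's methods, reads were trimmed with fastp, aligned with STAR and assigned to genes by featureCounts at default settings, and genes with few counts were removed with filterByExpr of edgeR. The sources name GRCh38 in the methods and GRCh37 and STAR 2.7.10a in the processing notes. The name of the authors' deposited table calls its counts filtered and normalized. The values are whole numbers not scaled to depth, and they were treated as raw counts. Total counts ranged from 403279 to 45977729.

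All 14698 genes were fitted with edgeR 4.0.16 (R 4.3.3, TMM factors, quasi-likelihood test, 1 fit of the 4 conditions). P-values were adjusted by Benjamini-Hochberg over all genes and called under 0.05, and a DEG also had an absolute log2 fold change above 1. CPM used the TMM factors. Standard errors were the absolute log2 fold change divided by the root of F. Alternatives were RLE factors, library sizes alone, DESeq2 1.42.0, limma 3.58.1 voom with sample quality weights, filterByExpr, the 2 compared groups alone, a replicate block, and libraries left out. Only the quasi-likelihood test was run on simulated counts with known changes, for the onametostat comparisons in normoxia and hypoxia. The oxygen comparisons, the interaction and the other methods were not run on simulated counts.

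The genes and lists were chosen with earlier results of these data known. Genes were named with values where they were DEGs, had the largest rise or fall of a role group, or were called between oxygen levels, and the others named were chosen after their values were seen. Positions are from GENCODE 44.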

Additional observations from a re-analysis of the deposited data

How the results depend on the processing

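The counts of spliceosome genes called higher with onametostat held at 46 to 49 of 59 in normoxia and 47 to 51 in hypoxia over every alternative run. The filterByExpr alternative gave the same counts as the main fit, the table being filtered already, so it was no separate check. Of 396 counts under an alternative, 378 stayed within 1.5 times. They include many counts of 0 that stayed at 0, so this number says little about stability. The exceptions were the following. The 5 genes lower with onametostat in normoxia became 3 to 5 when 1 library was left out. The 16 genes lower in hypoxia with DMSO became 25 with limma voom and 9 to 24 when 1 library was left out. With onametostat, the 3 genes lower in hypoxia became 5 with RLE factors and 5 with library sizes alone, and 1 to 4 when 1 library was left out. The 1 higher gene became 2 with limma voom, 2 with libraries 2 and 3 of onametostat in hypoxia left out together, and 1 to 2 when 1 library was left out, and the DEGs upwards went from 0 to 1 (RBM17, without library 1 or library 2 of onametostat in hypoxia). The interaction, with 0 genes called higher, had 1 with DESeq2 and 1 with limma voom. Of 1117 fold changes of named genes under an alternative, 1062 kept direction and call, 49 lost the call, 4 gained it and 2 reversed, both for RBM17 between oxygen levels with onametostat (-0.045 without library 3 of onametostat in hypoxia and -0.080 without libraries 2 and 3, with a range of -0.045 to 3.35 when 1 library was left out). The cause was not tested. Library sizes alone moved the median of all genes to -0.04 in normoxia and -0.08 in hypoxia. Experiment numbers did not pair the libraries, since deviations of same-numbered libraries correlated at -0.08 to 0.08 over 18 pairs, and with the replicate block 49 genes were higher and 5 lower with onametostat in normoxia, 51 and 2 in hypoxia, 5 higher and 16 lower between oxygen levels with DMSO, 1 and 3 with onametostat, and 0 for the interaction. Library 3 of onametostat in hypoxia limits the precision: the median coefficient of variation of the 59 genes was 6.58% in its group and 2.31% to 2.46% in the others.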

Other observations

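Divided by the length of the canonical transcript, SNRPC had the highest mean level of the 59 genes with DMSO in normoxia, at 178 CPM per kilobase, followed by U2AF2 at 159, SNRNP70 at 151 and SF3B4 at 129. PRPF3, U2AF1, PRPF38B and PRPF39, the DEGs with onametostat at both oxygen levels, stood at 29.1, 17.3, 14.3 and 6.82 CPM per kilobase. The level of U2AF1 is uncertain because of its annotated copy. PRPF40B was lowest at 1.58. With onametostat in normoxia PRPF39 stood at 17.4 CPM per kilobase. Library 3 of onametostat in hypoxia, where 1 count was worth 2.69 CPM, was the highest of the 12 libraries for 18 of the 59 genes. This was not counted over all genes, so it does not set the 59 genes apart.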
